A study of Mus musculus with 59 samples.

Results

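Prefrontal cortex of mice heterozygous for Ank2 (HT) was compared between animals given fluoxetine and animals given lithium. The comparison rests on the 20 libraries that the labels mark as heterozygous and as treated with either drug, out of 59 libraries in the series. They are 10 HT fluoxetine libraries (5 female, 5 male) and 10 HT lithium libraries (5 female, 5 male). All mice were C57BL/6J. Either drug was given for 3 weeks, on postnatal days 3 to 24, through the milk of the mother, and the cortex was taken on day 25. For reference, the series also holds 10 HT vehicle libraries and, in wild-type mice (WT), 9 fluoxetine, 10 lithium and 10 vehicle libraries. The labels give no dose, no drug level in the pups, no litter and no description of the Ank2 allele. They do not say whether each library came from a separate mouse or litter, so p-values measure the spread between these libraries, which may share a mother.

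Fluoxetine blocks the serotonin transporter and so prolongs the action of serotonin released from raphe axons in the cortex. Lithium inhibits glycogen synthase kinase 3 and several inositol phosphatases, and is used as a mood stabiliser. Ank2 codes for ankyrin-B, an adaptor that ties membrane proteins to the spectrin cytoskeleton, and is a gene mutated in autism. Strong synaptic input to cortical neurons opens calcium channels and activates the ERK kinases. CREB and serum response factor then switch on immediate early genes such as Fos, Egr1 and Arc within minutes, and ERK also induces its own inhibitors, among them the phosphatase Dusp6 and the Sprouty proteins.

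All levels are normalized read counts as deposited, with an estimated depth of 28.2 to 35.5 M (mega) reads per HT fluoxetine library and 29.6 to 35.9 M reads per HT lithium library. Differences are log2 changes, fluoxetine minus lithium, averaged over the sexes, with the standard error (SE) of a linear model fitted with limma to all libraries. A gene was called at a Benjamini-Hochberg adjusted p under 0.05 over the 16919 genes tested. The tissue label was checked against markers. Slc17a7, the vesicular glutamate transporter of cortical excitatory neurons, was at 38937 to 58646 in HT fluoxetine and at 45817 to 53825 in HT lithium. Several libraries stood apart, and 4 of them were left out in an alternative fit. HT fluoxetine female 2 had 72657 of Ttr, a choroid plexus transcript that was at 49 or less in the other 19 libraries, with Prox1, a dentate gyrus marker, at 4900. HT fluoxetine female 4 had 9791 of Xist against 30734 to 40609 in the other 4 females of its group. HT lithium male 1 had the striatal marker Drd1 at 935, and HT lithium male 2 had the Y-linked Ddx3y at 669 against 1692 to 1942 in the other males of its group. Libraries kept in that fit differed too. Summed olfactory bulb markers were at 22478 in HT fluoxetine female 5 and 23318 in male 5, against 4013 to 13150 in their group's other libraries. Summed striatal markers were at 32407 in HT fluoxetine female 1, against 21540 to 25978 in the rest of its group. Because RNA was taken from whole tissue, fewer cells of a type and less RNA per cell cannot be told apart.

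Ank2 itself was at 17431 to 22813 (median 22391) in HT fluoxetine and at 18076 to 21947 (median 19672) in HT lithium. The groups overlapped, and the difference of 0.10 (SE 0.038, adjusted p = 0.0624) did not pass the test. All 20 libraries lay below the lowest WT library, which was given vehicle and had 23284. The lowest WT library given either drug had 25376. In males the difference was 0.22 (adjusted p = 0.00646), and in females it was -0.02 (adjusted p = 0.907). Tested directly, the sexes did not differ detectably (female minus male -0.24, adjusted p = 0.216). The lowest fluoxetine value, 17431, was that of female 2, the library with choroid plexus transcripts. Without the 4 libraries the average was 0.12 (adjusted p = 0.0382).

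Between the drugs, 2209 of 16919 genes (13.1%) were called, of which 1045 (6.18%) were higher and 1164 (6.88%) lower in HT fluoxetine. A further count, of genes at an unadjusted p under 0.05, was 4585. When the libraries were rescaled to equal sums, 860 genes were higher and 1465 lower. The changes were small, with a median size of 0.22 among called genes, and only 17 were more than 2-fold higher and 14 more than 2-fold lower. For 73 genes (0.431%) the 10 HT fluoxetine libraries did not overlap the 10 HT lithium libraries at all, with fluoxetine higher for 40 (0.236%) and lower for 33 (0.195%). Without the 4 libraries that stood apart, 1438 genes were called, 622 higher and 816 lower. The median over all genes tested was near 0 (-0.0007).

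**Figure D1:**
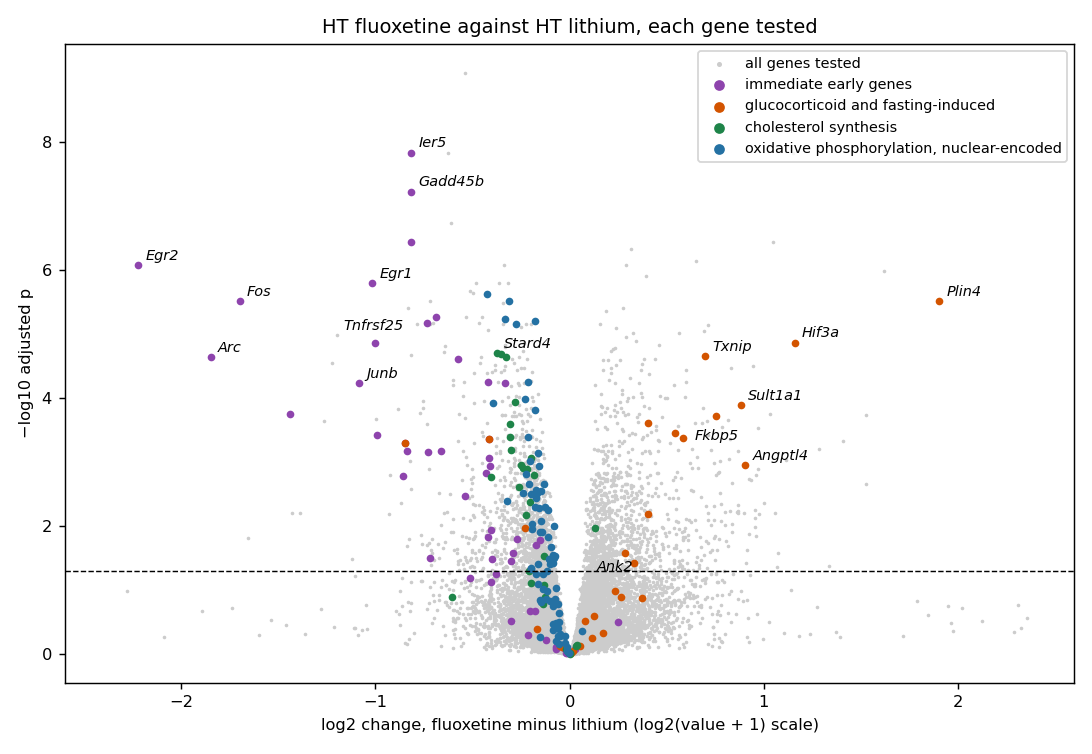
Log2 change in HT fluoxetine minus HT lithium (x axis, 10 libraries each) against -log10 of limma's adjusted p (y axis) for the genes tested, with 4 gene lists coloured, the dashed line at an adjusted p of 0.05 and 6 genes outside the plotted range. Immediate early genes, cholesterol synthesis and oxidative phosphorylation genes lie mostly on the left, lower in fluoxetine, while Plin4, Hif3a, Fkbp5 and most other glucocorticoid and fasting-induced genes lie on the right.

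The largest falls were in immediate early genes. Of 52 tested, 35 (67.3%) were lower in HT fluoxetine than in HT lithium and 0 were higher, against 6.88% lower among all genes, and their median change was -0.41. Only 2 of the 52 had a positive log2 change. The count of lower members was 31 without the 4 libraries and 30 to 37 when any single library of the 20 was left out. Averaged over the list, the deviation from the 20-library mean on the log2 scale was -0.35 to -0.14 (median -0.27) in HT fluoxetine libraries and -0.08 to 0.64 (median 0.29) in HT lithium libraries, so the groups did not overlap.

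Promoter sequences are shown for 4 genes, Gadd45b and Fos as immediate early genes whose libraries did not overlap, Egr2 as the immediate early gene with the largest fall, and Sgk1 as a glucocorticoid target discussed further on. They are the 250 bases before a start site in RefSeq (GRCm38.p6), 5′ to 3′ on the gene's own strand, with motifs found by exact search of both strands in capitals. The window of Gadd45b, chr10:80929841-80930090 on the + strand, holds an E-box (CACGTG) 185 to 180 bases upstream. That of Fos, chr12:85473640-85473889 on the + strand, holds none of the 6 motifs searched. The printed window of Egr2, chr10:67537619-67537868 on the + strand and 1 of its 5, holds a serum response element 72 to 63 bases upstream. The windows starting at 67537620 and 67537680 overlap the printed one and hold the same site. The window starting at 67537316 holds another match to this element, 72 to 63 bases before its own start site. That starting at 67535249 holds an E-box 27 to 22 bases upstream. One of the 6 windows of Sgk1, chr10:21993640-21993889 on the + strand, holds an E-box 246 to 241 bases and a glucocorticoid response element 189 to 175 bases upstream.
Gadd45b: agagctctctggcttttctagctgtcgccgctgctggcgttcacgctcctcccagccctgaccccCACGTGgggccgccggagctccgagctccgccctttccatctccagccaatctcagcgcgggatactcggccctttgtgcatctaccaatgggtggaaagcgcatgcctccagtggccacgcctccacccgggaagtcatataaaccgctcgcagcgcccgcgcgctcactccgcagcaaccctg
Fos: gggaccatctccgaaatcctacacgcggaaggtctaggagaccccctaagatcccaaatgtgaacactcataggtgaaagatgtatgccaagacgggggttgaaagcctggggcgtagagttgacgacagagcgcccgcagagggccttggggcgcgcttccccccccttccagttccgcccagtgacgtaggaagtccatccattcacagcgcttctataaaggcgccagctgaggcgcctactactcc
Egr2: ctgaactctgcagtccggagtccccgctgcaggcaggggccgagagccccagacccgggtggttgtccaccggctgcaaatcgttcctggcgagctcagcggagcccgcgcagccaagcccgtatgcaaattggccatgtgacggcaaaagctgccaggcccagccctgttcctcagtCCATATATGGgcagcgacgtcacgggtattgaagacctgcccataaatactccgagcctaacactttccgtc
Sgk1: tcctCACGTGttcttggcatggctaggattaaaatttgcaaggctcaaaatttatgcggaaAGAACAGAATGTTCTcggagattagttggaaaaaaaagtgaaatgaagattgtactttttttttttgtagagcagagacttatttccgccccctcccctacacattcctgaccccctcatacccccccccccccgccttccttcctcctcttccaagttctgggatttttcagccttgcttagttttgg
The motifs searched were the cAMP response element (TGACGTCA), the AP-1 site (TGACTCA), the E-box (CACGTG), the serum response element and the glucocorticoid response element (both given by name) and the sterol response element (TCACNCCAC); none contains another. Of the 35 immediate early genes that fell, 26 had a window. An E-box was in 6 of these 26 (23.1%), against 6.86% of all 27025 genes with a window, and in 3 of the 16 members with a window that were not called (18.8%). A cAMP response element was in 2 of the 26 (7.69%, Dusp1 and Pcsk1), against 1.77% of all genes, and in 3 of the 16 members that were not called. The serum response element was in 1 of the 26 (Egr2), against 1.62% of all genes. The windows of Ier5 and Ier3 held none of the motifs. These matches describe letters in a window and were not tested.

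Egr2, a zinc finger transcription factor (chromosome 10, 67535475 to 67542188, + strand), was at 29.4 to 139.9 (median 59.99) in HT fluoxetine and at 138.4 to 605 (median 255) in HT lithium. It was lower by a factor of 0.214 (log2 change -2.22, SE 0.29, adjusted p = 8.47e-07). All but 1 of the HT fluoxetine libraries lay below the lowest HT lithium library. Fos, a subunit of AP-1 (chromosome 12, 85473890 to 85477273, + strand), was at 107 to 425 (median 262) in HT fluoxetine and at 502 to 1306 (median 929.6) in HT lithium. The groups did not overlap, and the log2 change was -1.70 (SE 0.24, adjusted p = 3.11e-06). Arc, which regulates AMPA receptor uptake at synapses, was at 815 to 1928 (median 1059.5) in HT fluoxetine and at 1733 to 8546 (median 5085) in HT lithium, a log2 change of -1.85 (SE 0.29, adjusted p = 2.3e-05). For Arc, 8 HT fluoxetine libraries lay below every HT lithium library.

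Egr1, a paralogue of Egr2, was at 2115 to 5157 (median 4162) in HT fluoxetine and at 5763 to 11511 (median 7992) in HT lithium, without overlap (log2 change -1.02, SE 0.14, adjusted p = 1.63e-06). Ier5, an immediate early gene linked to heat shock factor, was at 672 to 1365 (median 1163) in HT fluoxetine and at 1565 to 2352 (median 2053) in HT lithium, again without overlap (log2 change -0.82, SE 0.089, adjusted p = 1.48e-08). Gadd45b, which takes part in stress signalling and DNA demethylation, was at 164 to 212 (median 184) in HT fluoxetine and at 257 to 426 (median 319) in HT lithium. Its groups stood clear of each other as well (log2 change -0.82, SE 0.095, adjusted p = 5.98e-08). Including Fos, Egr1, Ier5 and Gadd45b, 5 of the list's tested members had such separate groups. Among all 16919 genes the share was 0.195% with fluoxetine lower and 0.236% with fluoxetine higher. Ier3 (log2 change -0.82, adjusted p = 3.69e-07) did not, with 50.5 to 112 in HT fluoxetine and 102 to 196 in HT lithium.

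Other members that fell were the AP-1 subunits Junb (log2 change -1.09, adjusted p = 5.95e-05) and Fosb (log2 change -0.86, adjusted p = 0.00168), the nuclear receptor Nr4a1 (log2 change -0.99, adjusted p = 0.000375) and the Krüppel-like factor Klf10 (log2 change -0.9997, adjusted p = 1.4e-05). The stress-responsive factor Atf3 fell by 1.44 on the log2 scale (adjusted p = 0.000177), and the synaptic scaffold gene Homer1, whose short form is activity-induced, fell by 0.43 (adjusted p = 0.00147). Not every member moved. Jun had a log2 change of -0.06, Jund -0.02, Nr4a2 -0.02, Klf6 0.03 and Btg1 0.25, and none of these passed the test.

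**Figure D2:**
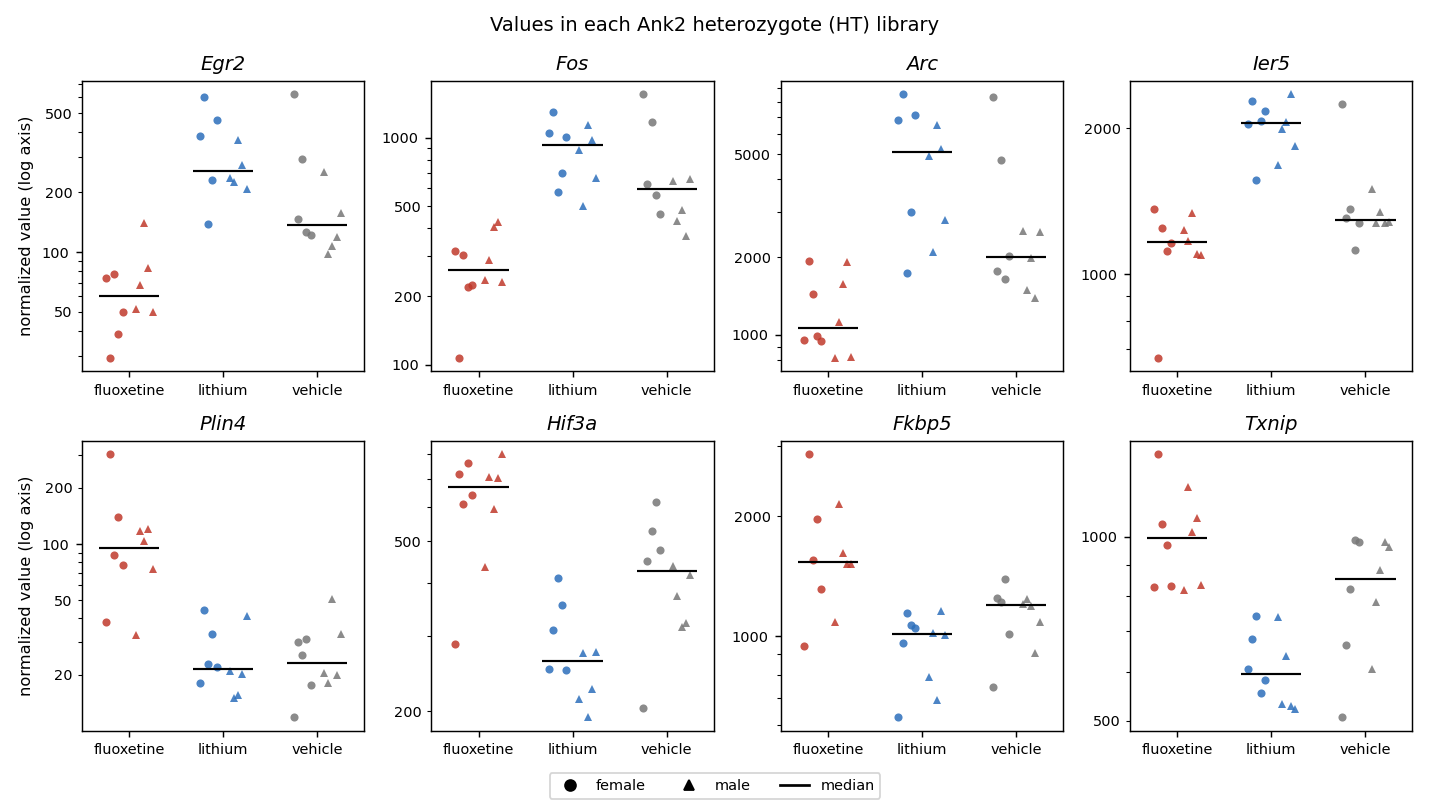
Normalized read count (log axis) of 8 genes in each HT fluoxetine, HT lithium and HT vehicle library (10 each; circles are female, triangles male, lines medians). The medians of Egr2, Fos, Arc and Ier5 are lower in fluoxetine than in lithium, with vehicle in between, and that of Plin4 is higher in fluoxetine than in both other groups.

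Map2k3, Nab2 and Phf13, outside the list and picked after their values were seen, fell with it. Map2k3, a kinase that activates p38, had the smallest p of all genes. It was at 266 to 322 (median 279) in HT fluoxetine and at 365 to 507 (median 413) in HT lithium, without overlap (log2 change -0.54, SE 0.053, adjusted p = 8.39e-10). Nab2, a corepressor of the Egr factors, was at 557 to 828.7 (median 754) in HT fluoxetine and at 904 to 1281 (median 1160.3) in HT lithium, also without overlap (log2 change -0.61, adjusted p = 1.88e-07). Phf13, a reader of histone methylation, had a log2 change of -0.63 (adjusted p = 1.48e-08) and no overlap. Tnfrsf25, a death-domain receptor, was lower by a factor of 0.435 (adjusted p = 1.05e-05), with 70.2 to 263 (median 91.7) in HT fluoxetine and 131 to 391 (median 233) in HT lithium. The highest Tnfrsf25 value under fluoxetine was that of female 2, and without the 4 libraries the log2 change was -1.46. Also among the 12 largest falls were Sowahb (log2 change -0.88, adjusted p = 0.00015) and the matricellular signalling gene Ccn4 (-0.93, adjusted p = 0.00648), of which Ccn4 lost the call without the 4 libraries (-0.55, adjusted p = 0.14).

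Feedback inhibitors of ERK signalling followed. Of 16 genes, 9 (56.2%) were lower and 0 higher in HT fluoxetine, against 6.88% and 6.18% of all genes. The median change was -0.25, and 9 were lower without the 4 libraries. Fitted to the 20 libraries alone, 6 were lower. Among the called genes, Ier3 and Dusp1 stand in both lists, and so do Dusp4 and Dusp5, which were not called. Dusp6, the ERK-specific phosphatase, was at 1287 to 1887 (median 1496) in HT fluoxetine and at 1834 to 3070 (median 2559) in HT lithium (log2 change -0.69, SE 0.10, adjusted p = 5.51e-06). All but 1 fluoxetine library lay below every lithium library. Spry4 had a log2 change of -0.58 (adjusted p = 0.000467), and Spry2, Etv5, Phlda1, Spred3 and Dusp7 had changes of -0.29 to -0.18.

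Bdnf, the neurotrophin that CREB induces, was picked after its values were seen. It was at 658 to 1297 (median 861) in HT fluoxetine and at 937 to 1480 (median 1171) in HT lithium, overlapping (log2 change -0.41, SE 0.089, adjusted p = 0.00118). In the list of calcium and CREB signalling genes, 7 of 29 rose (24.1%, against 6.18% of all genes) and 3 fell (10.3%, against 6.88%), with 5 and 0 without the 4 libraries. Pnck, a calcium/calmodulin-dependent kinase, was at 1484 to 1799 (median 1619) in HT fluoxetine and at 1114 to 1532 (median 1275) in HT lithium (log2 change 0.34, adjusted p = 1.3e-05). The TrkB receptor gene Ntrk2 (log2 change 0.13, adjusted p = 0.0033), its relative Ntrk3 (0.13, adjusted p = 0.0067) and the CREB coactivator Crtc1 (0.16, adjusted p = 0.0018) also rose. Camk2a had a log2 change of 0.21 (adjusted p = 0.01), which did not pass the test without the 4 libraries (adjusted p = 0.0616).

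The HT vehicle libraries show on which side of vehicle each drug group lay. Both comparisons with vehicle use the same 10 HT vehicle libraries, and each shares a drug group with the direct comparison, so their values are given side by side only. Fluoxetine against vehicle gave 2370 called genes (14%), 6.63% higher and 7.38% lower, and lithium against vehicle gave 847 (5.01%), 2.75% higher and 2.26% lower. Of the 52 immediate early genes, 15 were lower in fluoxetine than in vehicle, against 7.38% of all genes, and 12 were higher in lithium than in vehicle, against 2.75% of all genes, with 0 in the opposite direction for either drug. Egr2 had a log2 change of -1.48 in fluoxetine minus vehicle (adjusted p = 0.000313) and of 0.75 in lithium minus vehicle (adjusted p = 0.121). Fos had -1.27 (adjusted p = 0.000162) in fluoxetine minus vehicle and 0.42 (adjusted p = 0.313) in lithium minus vehicle. In HT vehicle the highest library was far above the median, with Egr2 at 98.2 to 622 (median 137), Fos at 369 to 1556 (median 594), Arc at 1385 to 8341 (median 2004) and Junb at 629 to 2140.4 (median 736). The part of this spread in the comparisons with vehicle was not tested.

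Other members had the larger log2 change from vehicle under lithium. Dusp6 had a log2 change of -0.21 (adjusted p = 0.155) in fluoxetine minus vehicle and of 0.47 (adjusted p = 0.0038) in lithium minus vehicle. Bdnf had 0.03 (adjusted p = 0.847) in fluoxetine minus vehicle and 0.45 (adjusted p = 0.00195) in lithium minus vehicle. Gadd45b passed the test in both, at -0.39 (adjusted p = 0.00352) for fluoxetine and 0.43 (adjusted p = 0.00552) for lithium, and Ier5 did so at -0.28 (adjusted p = 0.0265) and 0.54 (adjusted p = 0.000271). Among the 16 ERK feedback genes, 4 were lower in fluoxetine than in vehicle, against 7.38% of all genes. In lithium 8 were higher than in vehicle, against 2.75% of all genes. Across all genes, of the 1045 higher in fluoxetine than in lithium, 423 were higher in fluoxetine than in vehicle, 126 were lower in lithium than in vehicle, and 501 passed in neither. Of the 1164 lower genes, 536 were lower in fluoxetine than in vehicle, 168 were higher in lithium than in vehicle, and 470 passed in neither.

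**Figure D3:**
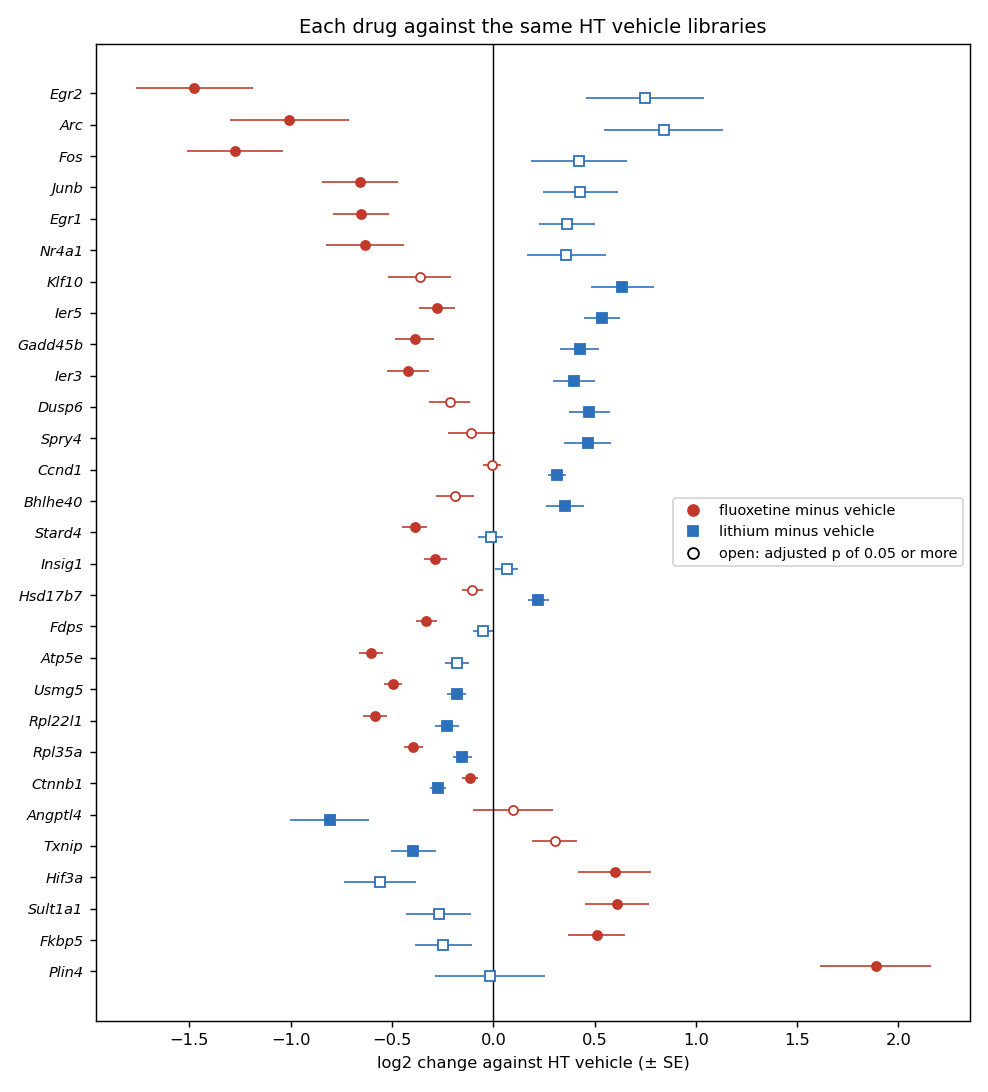
Log2 change against HT vehicle (x axis) under fluoxetine (circles) and under lithium (squares) for named genes, with 1 SE as error bars and open symbols at an adjusted p of 0.05 or more; each group has 10 libraries, and the same vehicle libraries serve both drugs. Egr2 and Fos pass the test below 0 under fluoxetine, Dusp6 and Klf10 above 0 under lithium, and Plin4 lies above 0 under fluoxetine and near 0 under lithium.

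The largest rises included glucocorticoid and fasting-induced genes, which the glucocorticoid receptor and FOXO factors switch on in many tissues. Of 28 tested, 12 (42.9%) were higher in HT fluoxetine, against 6.18% of all genes, 3 were lower, and the median change was 0.25. The 3 that fell were Per1 and Dusp1, which are also immediate early genes, and Nr3c1, the glucocorticoid receptor itself. Without the 4 libraries 9 rose and 2 fell. The list's mean deviation was -0.17 to 0.56 (median 0.19) in HT fluoxetine libraries and -0.21 to -0.05 (median -0.17) in HT lithium libraries. The 0.56 was that of female 2, and 2 fluoxetine libraries, female 1 and male 1, lay at about the level of the lithium libraries.

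Plin4, a lipid droplet coat protein, was at 32.7 to 305 (median 95.5) in HT fluoxetine and at 15.0 to 44.6 (median 21.4) in HT lithium, 3.74-fold higher (log2 change 1.90, SE 0.27, adjusted p = 3.11e-06). The 305 was that of female 2, the library with choroid plexus transcripts, and without the 4 libraries the log2 change was 1.49. Plin4 did not differ detectably between lithium and vehicle (log2 change -0.02, adjusted p = 0.981), and was higher in fluoxetine than in vehicle (1.89, adjusted p = 1.7e-06). Hif3a, a hypoxia-inducible factor of the inhibitory kind, was at 287 to 801 (median 671) in HT fluoxetine and at 194 to 411 (median 262) in HT lithium, 2.23-fold higher (log2 change 1.16, SE 0.18, adjusted p = 1.37e-05). It lay at 0.60 (adjusted p = 0.0185) in fluoxetine minus vehicle and at -0.56 (adjusted p = 0.0563) in lithium minus vehicle.

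Fkbp5, the glucocorticoid receptor's co-chaperone, was at 944 to 2870 (median 1539) in HT fluoxetine and at 625.4 to 1156 (median 1013) in HT lithium, 1.69-fold higher (log2 change 0.76, SE 0.14, adjusted p = 0.000194). Without the 4 libraries its log2 change was 0.56 (adjusted p = 0.0117). Txnip, an inhibitor of thioredoxin and of glucose uptake, was at 819.5 to 1368 (median 995) in HT fluoxetine and at 522 to 743 (median 595) in HT lithium, with no overlap (log2 change 0.70, SE 0.11, adjusted p = 2.22e-05). Against vehicle, Txnip had a log2 change of 0.30 (adjusted p = 0.0611) under fluoxetine and of -0.39 (adjusted p = 0.0312) under lithium. Sgk1, a kinase that regulates ion transport and was picked after its values were seen, had a log2 change of 0.40 (adjusted p = 0.00648), which did not pass without the 4 libraries (0.30, adjusted p = 0.112). Its window, printed above, was the only one among 13 called list members with a window that held the glucocorticoid response element, a motif found in 3 of all 27025 genes (0.0111%). An E-box was in 5 of the 13 (38.5%), against 6.86% of all genes. They were Fkbp5, Klf15 and Sgk1, which rose, and Dusp1 and Per1, which fell.

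Sult1a1, a sulfotransferase, rose by 0.88 (adjusted p = 0.000131), and Angptl4, an inhibitor of lipoprotein lipase, by 0.91 (adjusted p = 0.00113). The circadian and fasting regulator Klf15 (0.41, adjusted p = 0.00024) and the metal-binding metallothionein Mt2 (0.54, adjusted p = 0.00035) rose as well. Outside the list, Galnt15, which starts mucin-type glycosylation, was at 140 to 249 (median 210.3) in HT fluoxetine and at 88.9 to 145 (median 108) in HT lithium (log2 change 0.83, adjusted p = 3.42e-05). Cd163, a scavenger receptor of perivascular macrophages, rose by 0.74 (adjusted p = 0.00106), Smim3 by 0.77 (adjusted p = 0.00144) and Egf, a growth factor, by 0.73 (adjusted p = 0.00988). Sspo, Pkp2 and Pcolce2 were also among the 12 largest rises but lost the call without the 4 libraries. Rpl14-ps1, a ribosomal pseudogene whose reads cannot be told from those of its parent with certainty, had a log2 change of 3.48 (adjusted p = 0.0417; 0.154 without the 4 libraries) and a value of 0 in some libraries of either drug. Of the called genes high enough to be named (mean 50 or more) whose direction matched in females and males, 93 predicted genes that rose and 52 that fell are not named.

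Cholesterol synthesis was lower. Of 32 tested genes, 18 (56.2%) fell and 1 rose, against 6.88% and 6.18% of all genes. The median change was -0.20, and 17 fell without the 4 libraries. The one that rose was Scap (0.13), the escort protein of the SREBP factors, and it lost the call without those libraries. The list's mean deviation was -0.16 to -0.01 (median -0.10) in HT fluoxetine libraries and 0.04 to 0.15 (median 0.10) in HT lithium libraries, without overlap.

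Insig1, which holds SREBP in the endoplasmic reticulum and is itself an SREBP target, was at 1560 to 1855 (median 1739.8) in HT fluoxetine and at 2012 to 2559 (median 2203) in HT lithium. The groups did not overlap (log2 change -0.35, SE 0.056, adjusted p = 2.08e-05). Hsd17b7, an enzyme of the late pathway, was at 648 to 804 (median 705) in HT fluoxetine and at 837 to 1008 (median 883.5) in HT lithium, also without overlap (log2 change -0.33, adjusted p = 2.3e-05). Stard4, a cholesterol carrier, fell by 0.38 (adjusted p = 2.02e-05), and Fdps, which makes farnesyl diphosphate, by 0.28 (adjusted p = 0.000118). In the list, 12 genes were lower in fluoxetine than in vehicle, against 7.38% of all genes. In lithium 1 was higher than in vehicle, against 2.75% of all genes. Insig1 was lower in fluoxetine than in vehicle by 0.29 on the log2 scale, with 0.07 in lithium minus vehicle. Among the 13 called members with a promoter window, 1 (Hmgcs1, 7.69%) held the sterol response element, against 1.22% of all genes. An E-box was in 4 of the 13 (30.8%), against 6.86% of all genes.

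**Figure D4:**
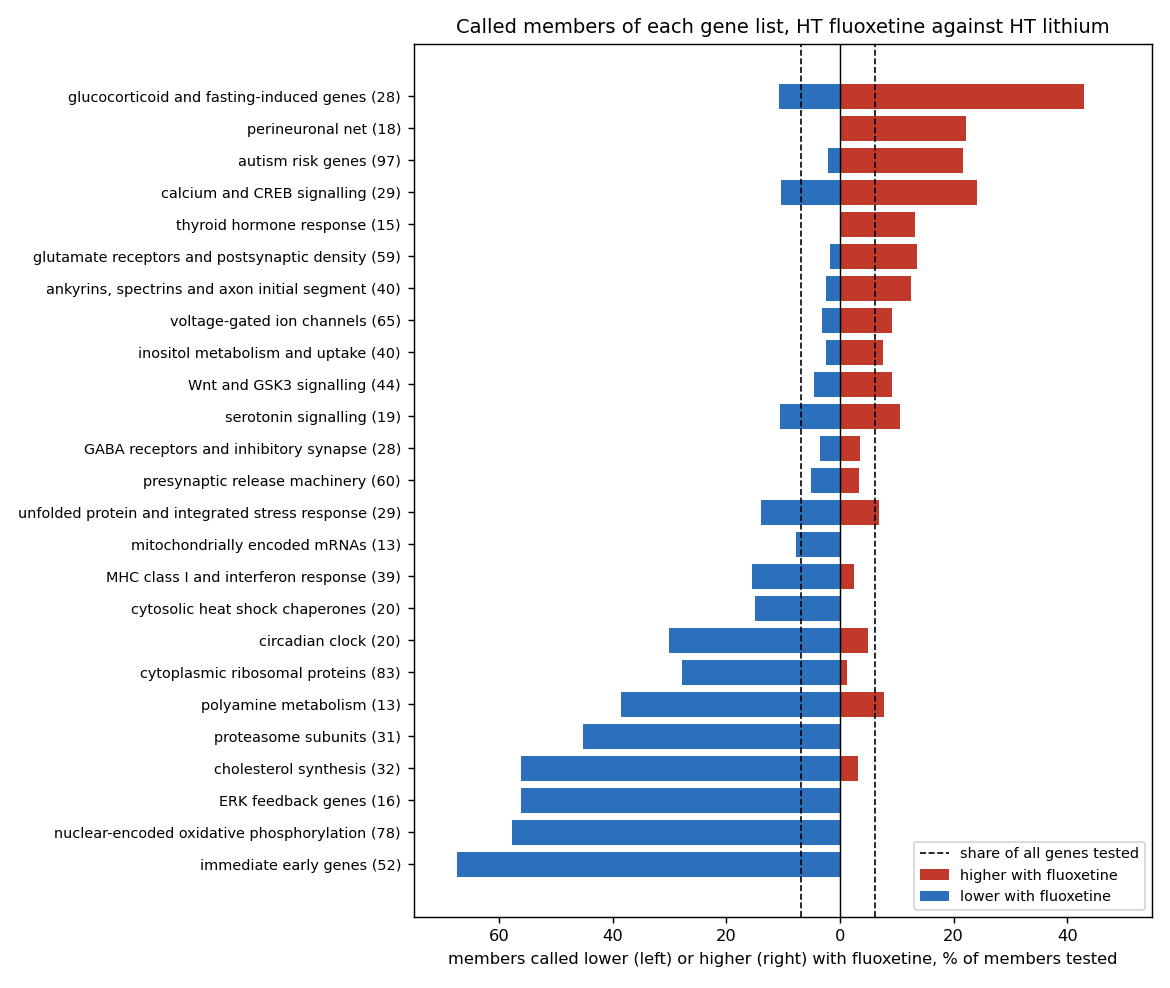
Percent of the tested members of each gene list (number tested in brackets) called lower (left bars) or higher (right bars) in HT fluoxetine than in HT lithium, 10 libraries each, with the percent over all genes tested as dashed lines. Immediate early genes, oxidative phosphorylation, ERK feedback and cholesterol synthesis genes have the largest shares lower, and glucocorticoid and fasting-induced genes the largest share higher.

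Genes for energy and protein turnover fell too, with different counts in the sexes. Of 78 nuclear genes for oxidative phosphorylation, 45 (57.7%) were lower in HT fluoxetine and 0 higher, against 6.88% and 6.18% of all genes. Their median change was -0.14, and 36 were lower without the 4 libraries. In males 49 were lower, against 3.98% of all genes, and in females 1, against 2.35% of all genes. The list's mean deviation was -0.14 to -0.01 in HT fluoxetine libraries of both sexes. It was -0.09 to 0.01 in HT lithium females and 0.12 to 0.25 in HT lithium males, so the lithium libraries split by sex without overlap. Ribosomal protein genes had 23 of 83 (27.7%) lower and 1 higher on average, with 44 lower in males, and 0 lower and 2 higher in females. Their mean deviation was -0.13 to -0.04 in HT lithium females and 0.10 to 0.20 in HT lithium males. Of 31 proteasome subunit genes, 14 (45.2%) were lower, 7 without the 4 libraries and 7 without HT fluoxetine male 4 alone, with 13 lower in males and 0 in females.

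Atp5e, the epsilon subunit of ATP synthase, was at 916 to 1304 (median 1017) in HT fluoxetine and at 1107 to 1814 (median 1382) in HT lithium (log2 change -0.42, adjusted p = 2.35e-06). Its log2 change was -0.20 in females (adjusted p = 0.154) and -0.65 in males. Rpl22l1, a paralogue of a ribosomal protein, had a log2 change of -0.35 on average (adjusted p = 3.94e-05), -0.12 in females (adjusted p = 0.443) and -0.59 in males (adjusted p = 1.3e-05). Against vehicle, 56 oxidative phosphorylation genes were lower in fluoxetine and 1 in lithium, and 59 ribosomal protein genes were lower in fluoxetine and 33 in lithium. Among all genes 7.38% were lower in fluoxetine than in vehicle and 2.26% lower in lithium. Of 13 mRNAs encoded in the mitochondrial genome, 1 was called, mt-Co3 (log2 change -1.12, adjusted p = 0.0335), with 7554 to 66334 in HT fluoxetine and 15783 to 65906 in HT lithium. For mt-Co3, 5 HT fluoxetine libraries lay below every HT lithium library and 1 lay above every one.

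The difference between the sexes was tested directly. In females 734 genes (4.34%) were called, 336 higher (1.99%) and 398 lower (2.35%), and in males 1168 genes (6.9%), 495 higher (2.93%) and 673 lower (3.98%), and the difference of the 2 effects was called for 10 genes (0.0591%), all higher in females minus males. Of these, 5 code for ribosomal proteins and 1 for a proteasome subunit. The smallest p was that of Rpl27, with log2 changes of 0.16 in females (adjusted p = 0.188) and -0.47 in males (adjusted p = 2.85e-05), a difference of 0.63 (adjusted p = 0.00159). The female count rests on single libraries. It was 269 without HT fluoxetine female 2, 260 without HT lithium female 2, 1164 without HT fluoxetine female 1 and 63 without the 4 libraries, and 0 genes differed between the sexes without them. The male count was 791 to 1370 when any single library was left out. Immediate early genes fell in both sexes, 30 in females and 19 in males, against 2.35% and 3.98% of all genes. The 30 are part of the female count and share its dependence on single libraries.

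Since short transcripts code for many of these proteins, the changes were read against transcript length. Among the tenth of genes with the shortest transcripts (median 575 bases), the median log2 change was -0.04, with 3.13% called higher and 12.3% lower. Among the tenth with the longest (median 4606 bases) it was 0.03, with 10.2% higher and 5.44% lower. In each library the slope of the log2 deviation on log2 transcript length was taken over 10789 genes. It averaged 0.0152 ± 0.0135 in HT fluoxetine and 0.00437 ± 0.0283 in HT lithium (SD, n = 10 each), a difference of 0.0108 (permutation test, two-sided, p = 0.293). In males it averaged 0.0138 ± 0.0137 under fluoxetine and -0.0193 ± 0.0138 under lithium (SD, n = 5 each), a difference of 0.0331 (exact permutation test, two-sided, p = 0.00794, the smallest that 5 against 5 can give). In females it averaged 0.0165 ± 0.0147 under fluoxetine and 0.0281 ± 0.0142 under lithium, a difference of -0.0116 (exact permutation test, p = 0.23). The slope thus moved with the sex of the HT lithium libraries, as the ribosomal and oxidative phosphorylation genes did. Across HT lithium it was 0.0079 to 0.0469 in females and -0.0420 to -0.0093 in males. In HT vehicle it was -0.0321 to 0.0485 (median -0.0152), positive in female 1 and negative in all the rest. In WT lithium libraries the slope was -0.0260 to -0.0102 in females and -0.0173 to -0.0011 in males, overlapping. With a correction for length and GC content, 39 oxidative phosphorylation, 22 ribosomal, 36 immediate early and 18 cholesterol synthesis genes were lower.

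**Figure D5:**
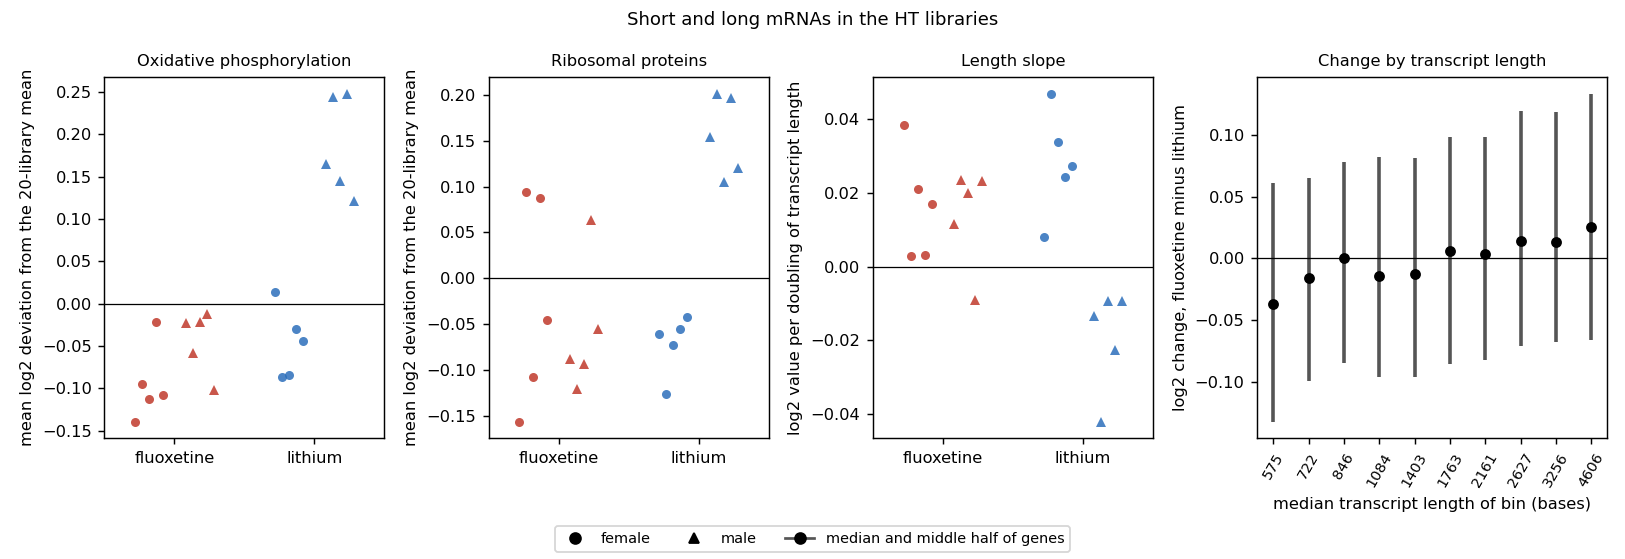
From left to right, the mean log2 deviation of oxidative phosphorylation genes and of ribosomal protein genes and the length slope in each HT fluoxetine and HT lithium library (circles are female, triangles male, 5 each per drug), and the median log2 change, fluoxetine minus lithium, in 10 bins of transcript length with bars over the middle 50% of genes. Lithium males lie apart from lithium females in the first 3 panels, and the median change is lowest in the shortest bin and highest in the longest.

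Direct targets of the drugs and genes of their pathways were looked at by name. Slc6a4, the serotonin transporter, averaged 4.51 and was too low to test. Htr1a, the inhibitory serotonin receptor, was at 764 to 1087 (median 859) in HT fluoxetine and at 553 to 779.6 (median 691) in HT lithium (log2 change 0.35, adjusted p = 0.0108), and the call was lost without the 4 libraries (adjusted p = 0.0979). S100a10, or p11, a partner of serotonin receptors, fell by 0.24 (adjusted p = 0.00292). Of 19 serotonin signalling genes, 2 rose and 2 fell (10.5% each, against 6.18% and 6.88% of all genes), with 1 and 1 without the 4 libraries. The lithium targets Gsk3a (log2 change 0.07, adjusted p = 0.144), Gsk3b (0.01, adjusted p = 0.913), Impa2 (-0.25, adjusted p = 0.516), Inpp1 (0.04, adjusted p = 0.832) and Bpnt1 (-0.03, adjusted p = 0.66) did not pass the test. Impa1, inositol monophosphatase, was at 1726 to 2095 (median 1950.1) in HT fluoxetine and at 1996 to 2301 (median 2112) in HT lithium (log2 change -0.13, SE 0.035, adjusted p = 0.00982). Of 40 inositol genes, 3 rose (7.5%) and 1 fell (2.5%), against 6.18% and 6.88% of all genes, with 0 and 2 without the 4 libraries.

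Of 44 genes of Wnt and GSK3 signalling, 4 rose (9.09%) and 2 fell (4.55%), against 6.18% and 6.88% of all genes, with 5 and 1 without the 4 libraries. Ccnd1, the cyclin D1 gene and a target of β-catenin, was at 1293 to 1683 (median 1465) in HT fluoxetine and at 1616 to 2081 (median 1851) in HT lithium (log2 change -0.32, adjusted p = 1.63e-06). It had a log2 change of -0.01 in fluoxetine minus vehicle and of 0.31 in lithium minus vehicle (adjusted p = 1.8e-05). Ctnnb1, which codes for β-catenin, rose by 0.16 between the drugs (adjusted p = 0.00456), at 17204 to 19799 in HT fluoxetine and 15191 to 18017 in HT lithium. It was lower than vehicle under both drugs, by 0.12 for fluoxetine and 0.27 for lithium on the log2 scale.

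Of 59 genes for glutamate receptors and the postsynaptic density, 8 (13.6%, against 6.18% of all genes) rose and 1, Homer1, fell, and 6 rose without the 4 libraries. Grin1 (0.13) and Grin2b (0.21), NMDA receptor subunits, and the scaffold Shank1 (0.21) were among those that rose. In the GABA list of 28, Shisa7, an auxiliary subunit of GABA-A receptors, rose by 0.22 (adjusted p = 1.71e-05) and Gabrd fell by 0.41 (adjusted p = 0.032), a call lost without the 4 libraries and without HT fluoxetine male 5 alone. Of 40 ankyrin, spectrin and axon initial segment genes, 5 rose, against 6.18% of all genes, and 4 without the 4 libraries, among them Ank3 (0.14, adjusted p = 0.0188) and the spectrin gene Sptbn1 (0.10, adjusted p = 0.00371), and 1 fell, and with the correction for length and GC content 1 rose. Of 97 autism risk genes, 21 (21.6%) rose and 2 fell, against 6.18% and 6.88% of all genes, with 14 and 1 without the 4 libraries. In males 20 of them rose and in females 0, against 2.93% and 1.99% of all genes. Cic, a transcriptional repressor, led with a log2 change of 0.20 (adjusted p = 2.55e-05), at 6224 to 7800 in HT fluoxetine and 5309 to 6721 in HT lithium.

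Atf4, the effector of the integrated stress response, was at 2440 to 3039 (median 2707) in HT fluoxetine and at 2985 to 4129 (median 3373) in HT lithium (log2 change -0.34, SE 0.045, adjusted p = 8.47e-07). All but 1 fluoxetine library lay below every lithium library, yet of the 29 genes of its list 2 rose (6.9%) and 4 fell (13.8%), against 6.18% and 6.88% of all genes, with 1 and 3 without the 4 libraries. Of 20 clock genes 6 fell (30%, against 6.88% of all genes) and 1 rose, with 4 and 1 without the 4 libraries and 4 lower in the 20 libraries alone. They were led by Bhlhe40 (log2 change -0.54, adjusted p = 5.66e-05), which activity also induces, and of the 6 Per1 and Nfil3 stand in the immediate early gene list too. Amd1, an enzyme of polyamine synthesis, was at 3251 to 3685 (median 3436) in HT fluoxetine and at 3792 to 4405 (median 4062) in HT lithium, without overlap (log2 change -0.22, adjusted p = 7.07e-06), and 5 of 13 polyamine genes fell (38.5%, against 6.88% of all genes) and 1 rose, with 3 and 0 without the 4 libraries and 3 lower in the 20 libraries alone. Irf9, part of the interferon-activated complex, fell by 0.40 (adjusted p = 3.99e-05).

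Most calls among markers of astrocytes, oligodendrocytes and their precursors were lost without the 4 libraries. The summed level of 24 astrocyte markers was 303870 to 397380 in HT fluoxetine and 272210 to 330110 in HT lithium, and 6 rose (25%, against 6.18% of all genes), 1 without the 4 libraries and 2 without HT fluoxetine male 4 alone. For 18 oligodendrocyte precursor markers the sums were 45684 to 54458 in HT fluoxetine and 40244 to 46894 in HT lithium, and 7 rose (38.9%), 0 without the 4 libraries. Of 33 oligodendrocyte and myelin markers 3 rose (9.09%, against 6.18% of all genes), 0 without the 4 libraries. Their sums were 167130 to 551090 in HT fluoxetine and 106200 to 228050 in HT lithium. Of 27 microglial markers 6 rose (22.2%), 5 without those libraries. Csf1r, the receptor that microglia need to survive, was at 2815 to 4317 (median 3312) in HT fluoxetine and at 1947 to 3186 (median 2601) in HT lithium (log2 change 0.37, adjusted p = 8.53e-05). The part of these markers in the rises of Plin4, Hif3a, Fkbp5 and the rest of their list was not tested. Beside the fall of the immediate early genes, 14 excitatory neuron markers summed to 229950 to 292660 in HT fluoxetine and 219700 to 275060 in HT lithium, overlapping, and 1 of the 14 rose.

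The same comparison in WT mice shares no library with that in HT mice. It called 3598 genes (21.3%), 1702 higher (10.1%) and 1896 lower (11.2%) in fluoxetine. Genes lower in both genotypes numbered 683, which is 58.7% of the HT falls and 36% of the WT falls, and those higher in both numbered 454, which is 43.4% of the HT rises and 26.7% of the WT rises. The direction was opposite for 5 genes. In WT, 36 immediate early genes fell and 1 rose, with Egr2 at -1.99 and Fos at -1.58. Of the glucocorticoid and fasting-induced genes, 4 rose and 2 fell in WT. Plin4 had a log2 change of 0.88 in WT (adjusted p = 0.0185), and Fkbp5 0.20 (adjusted p = 0.377). In WT, 65 of 78 oxidative phosphorylation genes and 68 of 83 ribosomal protein genes fell.

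Whether the drugs differed by another amount in HT than in WT was tested gene by gene. The difference was called for 4 genes (0.0236%), Rps18, Rps14, Wbp1l and Elob, all with a smaller fall or a rise in HT. Rps18, a protein of the small ribosomal subunit, had the smallest p, with log2 changes of -0.08 in HT and -0.42 in WT, a difference of 0.33 (SE 0.061, adjusted p = 0.0241). The smallest adjusted p of this difference was 0.123 among immediate early genes, 0.0645 among glucocorticoid and fasting-induced genes and 0.136 among cholesterol synthesis genes, so none of their members passed. Plin4 was at 1.03 in this difference (adjusted p = 0.23) and Fkbp5 at 0.56 (adjusted p = 0.21). The count was 0 without the 4 libraries.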

How the data were processed

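Messenger RNA from prefrontal cortex was sequenced after library preparation by TruSeq Stranded mRNA, as the labels' protocols state. The submitters' processing notes name Salmon 0.11.2, R 3.6.0, DESeq2 1.19.11 and build GRCm38. The deposited table holds signal, that is, estimated counts per gene after division by a factor for normalization, made by the authors. Of its 51456 Ensembl identifiers, 51285 were found among GRCm38 gene models, from which symbols, positions and transcript lengths were taken. Between 28.7% and 66.7% of a library's low values were whole multiples of its smallest step (tolerance 0.1 steps), so reads could not be recovered and the tests planned for counts were not used. Depth was estimated as a library's sum divided by that step. The spread between libraries includes the counting error.

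Values were analysed as log2(value + 1), so a fold change understates that of low genes. For 16919 genes whose mean over the 59 libraries reached 10, a model was fitted in R 4.3.3 with limma 3.58.1 (trend and robust options, 12 group means, 47 residual degrees of freedom). Tests were two-sided with Benjamini-Hochberg adjustment over all genes tested, and 8 contrasts were made. Standard errors come from this model. On simulated data with 50 changed genes of each size, 28%, 56%, 80% and 96% of changes of 0.2, 0.3, 0.5 and 1 on the log2 scale were recovered. There were 4 false calls among the unchanged ones of 16919 genes. Fewer genes were changed there than the 2209 called here, which makes the adjusted threshold stricter. Gene lists are described by counts and medians, without a set test. Some genes stand in more than 1 list. The length slope was taken over genes averaging 250 or more, with 100000 resamples. The correction for length and GC content used splines with 5 degrees of freedom. Promoter windows are RefSeq's on GRCm38.p6. Annotation, permutation tests and plots were made in Python 3.11.15 (SciPy 1.17.1, pandas 2.3.3, matplotlib 3.10.9, NumPy 2.4.6).

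The genes named are Ank2, the 12 largest rises and 12 largest falls among called genes that averaged 50 or more and moved one way in females and males, up to 4 called members of a list with the smallest p, direct drug targets, for each difference between sexes or genotypes up to 5 genes by smallest p, and defining markers. Others named from a list are examples, and some genes that the rule would name are not reported here. The comparison, lists and rules were chosen with earlier results of these data known. Alternatives were scaling, filter, pseudocount, sample weights, the libraries fitted, a replicate block, a correction for length and GC content, and leaving out libraries. Replicate numbers did not pair libraries.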

Additional observations from a re-analysis of the deposited data

Results flagged for a closer look

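Among 50 sets of 10 values, each for 1 gene in HT fluoxetine or HT lithium, 10 held a library far from the rest. The usual rate of about 1 in 20 by chance holds for independent sets. These reuse the same 20 libraries, so no excess can be read from the count. HT fluoxetine female 2, the library with choroid plexus transcripts, accounted for 6 of them. Its Ank2 was 17430 against 20480 to 22810 in the other 9 libraries. It was highest for Pkp2 (1120 against 105 to 235.5), Pcolce2 (387 against 48.7 to 131), Sspo (249 against 44.1 to 143) and Tnfrsf25 (263 against 70.2 to 100.1), and lowest for Sowahb (58.8 against 269.5 to 426). HT lithium female 5 was highest for Tnfrsf25 (391 against 131 to 269) and Sspo (117 against 24.8 to 72.3). HT fluoxetine male 3 was highest for Egr2 (139.9 against 29.4 to 82.7), and HT fluoxetine male 4 for Nr4a1 (1786 against 967 to 1335).

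The effect of fluoxetine against lithium differed between genotypes (HT minus WT) for Rps18 by 0.33, Rps14 by 0.34, Wbp1l by 0.24 and Elob, a subunit of elongin, by 0.24, with adjusted p-values of 0.0241 to 0.0481. It differed between the sexes (female minus male) for 10 genes. Among them were Rpl27 (0.63, adjusted p = 0.00159), Cops9 (0.53, adjusted p = 0.0203), Elob (0.33), Psmb3 (0.33), Rpl34 (0.44) and the mitochondrial import motor gene Pam16 (1.46), each with adjusted p = 0.0349, and Rps18 (0.39), Rpl35a (0.43) and Znrd1 (0.53), each with adjusted p = 0.049. Neither set was called without the 4 libraries that stood apart.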

How the results depend on the processing

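The count of 2209 called genes was 1883 (without HT lithium female 2) to 2424 (without HT fluoxetine female 1) when single libraries were left out, with 905 to 1180 higher and 974 to 1244 lower. Fitted to the 20 libraries alone it was 1460, 681 of them higher, and without the 4 libraries that stood apart, an alternative chosen after seeing the data, 1438, 622 of them higher; these settings called 62.7% and 55.8% of the reported genes. Rescaling shifted the median of all genes by -0.0123 (equal sums) or 0.00167 (median ratio). The female count of 734 was 260 to 1164 with single libraries left out, 489 without a filter on low values, 67 without HT fluoxetine females 2 and 4, 63 without the 4 libraries and 0 when fitted to the female libraries alone. The male count was 791 to 1370.

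The count of 10 genes that differed between the sexes was 1 to 30 with single libraries left out, 2 without the filter, 17 at a mean of at least 50, 73 with sample weights, 1 with the correction for length and GC content, 1 with that correction and the replicate block, and 0 without HT fluoxetine females 2 and 4 or without the 4 libraries. The count of 4 genes that differed between genotypes was 0 to 73 with single libraries left out, and 1, 21, 182, 0, 2, 0 and 0 under the same settings in that order. The cause was not tested.

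Same-numbered libraries of the drugs did not deviate together (correlations of -0.159 to 0.155, over 0.1 in 2 of 10 pairs, with 2 libraries closest to their own number), so they share only a number. With the replicate block, 2215 genes were called between the drugs and 17 differed between the sexes. The difference in length slope was 0.00562 to 0.0155 with single libraries left out. Over 160 named genes, 5137 of 5439 alternative values kept their direction and side of the threshold, 290 lost the call, 6 gained it and 6 changed sign. Those were Gsk3b, at -0.001201 with equal sums and at -0.01034, -0.003064, -0.00229 and -0.006263 without HT fluoxetine female 1 or male 3 or HT lithium female 1 or male 2, and Inpp1, at -0.01292 without HT lithium female 4; neither was called. With single libraries left out, Gsk3b reached from -0.01034 to 0.03738 and Inpp1 from -0.01292 to 0.08978. At this depth and spread, changes of 0.2 on the log2 scale were mostly missed in simulated data, where fewer genes changed than were called here.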

Other observations

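Extracellular matrix genes of the perineuronal net, the mesh around inhibitory neurons, had 4 of 18 members higher in HT fluoxetine than in HT lithium and 0 lower (median log2 change 0.07), against 6.18% and 6.88% of all genes. They were the proteoglycan genes Vcan (0.37, adjusted p = 0.00241) and Bcan (0.21, adjusted p = 0.0019), the tenascin gene Tnr (0.22, adjusted p = 0.0023) and the receptor phosphatase gene Ptprz1 (0.17, adjusted p = 0.012). Vcan was at 1021 to 1799.9 (median 1436) in HT fluoxetine and at 821 to 1445 (median 1082) in HT lithium. Oligodendrocyte precursors also express several of these genes, and without the 4 libraries that stood apart the counts were 1 of 18 for the net and 0 of 18 for precursor markers.

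Of 65 voltage-gated ion channel genes 6 rose (9.23%) and 2 fell (3.08%), against 6.18% and 6.88% of all genes, with 4 and 1 without the 4 libraries, 3 rises without HT fluoxetine male 3 and 2 in the 20 libraries alone. The L-type calcium channel gene Cacna1c (0.26, adjusted p = 0.0049) and the small-conductance potassium channel gene Kcnn2 (0.27, adjusted p = 0.011) rose, and Kcnc1, a fast delayed rectifier, fell by 0.17 (adjusted p = 0.00081). Of 60 presynaptic genes 2 rose (3.33%) and 3 fell (5%), with 8 and 2 without the 4 libraries. The shares of 6.18% and 6.88% of all genes also stand against this list and those that follow. Of 39 genes for MHC class I and the interferon response 1 rose (2.56%) and 6 fell (15.4%), with 1 and 3 without the 4 libraries; Ifitm3, a viral restriction factor, was at 162 to 234 (median 202) in HT fluoxetine and at 209 to 299 (median 241.5) in HT lithium (log2 change -0.30, adjusted p = 0.00831). Of 20 cytosolic chaperone genes 3 fell (15%) and 1 without the 4 libraries, led by Dnajb5 at 3840 to 4961 (median 4504) in HT fluoxetine and 4784 to 7905.5 (median 6234) in HT lithium (log2 change -0.51, adjusted p = 2.11e-06). Of 15 thyroid hormone response genes 2 rose, among them Dio3, and 0 without the 4 libraries.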
